A study of Drosophila melanogaster with 12 samples.

Results

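The 10 genes described here encode heat shock proteins and a cochaperone of Drosophila melanogaster. They are 7 small heat shock proteins (Hsp22, Hsp23, Hsp26, Hsp27, Hsp67Ba, Hsp67Bc and l(2)efl), the Hsp70-family protein Hsp68, the J-domain protein DnaJ-1 and the Hsp90 protein Hsp83. The genes were chosen by name and looked up through their FlyBase identifiers, and all 10 were among the 17610 genes of the count table. Of the 10, 9 passed the filter on low counts and were among the 11060 genes tested, and Hsp22 did not. RNA-seq was done on whole bodies of flies of the Oregon strain, all labelled female, in 4 groups of 3 libraries. The groups were flies given cisplatin and TiO2 nanoparticles together, flies given cisplatin alone (a chemotherapy drug whose platinum binds DNA), flies given TiO2 nanoparticles alone, and untreated control flies. All 4 groups fed for 3 days on yeast-enriched medium coloured with a green dye, and stocks were kept at 25 °C. Each substance was dosed at 50 µg/ml according to the treatment protocol and at 50 mg/ml according to the sample titles, a conflict that no value below depends on. The question of the study is the transcriptional response to each substance and to both at once. The labels give neither the age of the flies nor their number per library, and do not say that libraries came from separate cultures, so p-values measure only the spread between libraries, which may be technical.

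Chaperones bind proteins that are unfolded or misfolded. Small heat shock proteins hold such proteins and keep them from aggregating, Hsp70 proteins refold them using ATP after J-domain proteins have delivered them, and Hsp90 helps kinases and receptors to mature. In flies many of these genes are induced by heat shock factor (Hsf) after heat, heavy metals or other damage to proteins, but several are also transcribed without stress. Transcripts of Hsp26, Hsp27 and Hsp83 are known from nurse cells of the ovary, and l(2)efl and CG14207 are known from muscle.

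Library totals ran from 26.8 to 46.7 M counts (M for mega), so that the limit of 3 counts that a count of 0 allows was 0.0642 to 0.112 CPM (counts scaled to 1 M per library), a limit for counting error only. Together the 10 genes took from 0.494% to 0.735% of the counts of a library. A pair of libraries stood apart from the rest. Replicate 2 of the combination held transcripts of male glands and testis, which conflicts with its female label. All 12 markers found in the table were at 1 CPM or more there, with a summed level of 1503 CPM. The other 11 libraries had sums of 0.0745 to 1.82 CPM and none of these markers at 1 CPM. Its mitochondrial genes took 12.4% of counts. In control replicate 1 the mitochondrial genes took 16.7% of counts, and in the remaining 10 libraries they took 6.20% to 9.45%. For the 9 genes tested, and for counts in some wider lists of chaperones, results are also given without 1 or both of these libraries. Fold changes of single genes of the wider lists are given only with all 12 libraries. The flies were whole bodies, and all 11 ovary markers and all 7 muscle markers were detected in every library.

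Most of the genes sit on the left arm of chromosome 3. Hsp67Bc, Hsp22, Hsp26, Hsp67Ba, Hsp23 and Hsp27 lie, in this order, within 14184 bases of chromosome 3L (9371511 to 9385694, assembly BDGP6.54). The positions of all 10 genes in the count table were the same as in this annotation. DnaJ-1 (FBgn0263106, 3L, 5750029 to 5752189) and Hsp83 (FBgn0001233, 3L, 3192969 to 3197059) are elsewhere on that arm, Hsp68 (FBgn0001230) is on 3R at 24055080 to 24057310, and l(2)efl (FBgn0011296) is on 2R at 23684651 to 23685543. The strand setting of the counting is not given in the sources used here. This matters for Hsp67Ba, with 75.9% of its exon bases overlapped by the antisense gene asRNA:CR43481, and for l(2)efl, with 10.1% overlapped by St3 on the opposite strand. Hsp22 (FBgn0001223, 3L, 9372931 to 9374964) encodes a small heat shock protein of mitochondria. Its count was 0 in all 12 libraries. However, 100% of its exon bases lie in exons of CG4456 on the same strand, so a read from either gene could not be assigned to Hsp22 alone. CG4456 itself had 1, 20 and 0 counts in the combination libraries, 5, 1 and 2 in cisplatin, 2, 1 and 5 in TiO2, and 0, 1 and 2 in control. The expression of Hsp22 could therefore not be read from the table.

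Levels between genes were compared as RPKM, that is CPM per 1000 bases of exon. Hsp83 had the highest level, 1400 ± 108 RPKM (SD over 12 libraries), above 99.7% of all genes tested. Hsp26 came next with 1100 ± 284 RPKM, followed by Hsp23 with 558 ± 325, Hsp27 with 282 ± 89.7 and DnaJ-1 with 122 ± 41.8 RPKM. Below them, l(2)efl averaged 97.1 ± 66.2 and Hsp68 averaged 59.3 ± 39.2 RPKM. Hsp67Bc at 3.70 ± 2.04 RPKM and Hsp67Ba at 1.40 ± 0.392 RPKM were low, above 29.2% and 18.9% of genes. Hsp68 and Hsp67Bc were the only neighbours in this order whose ranges over the 12 libraries did not overlap. Of the other neighbours, DnaJ-1 exceeded l(2)efl in 9 of 12 libraries, and Hsp83 exceeded Hsp26, Hsp26 exceeded Hsp23 and l(2)efl exceeded Hsp68 in 10 of 12 each. The spread between libraries was uneven. Hsp83 had an SD of 0.11 in log2 CPM, smaller than that of all but 1.43% of genes, and its highest library was 1.28-fold above its lowest. Hsp68 had the largest SD of the 9 genes, 0.85, above that of 80.7% of genes, and the median over all genes tested was 0.51.

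**Figure D1:**
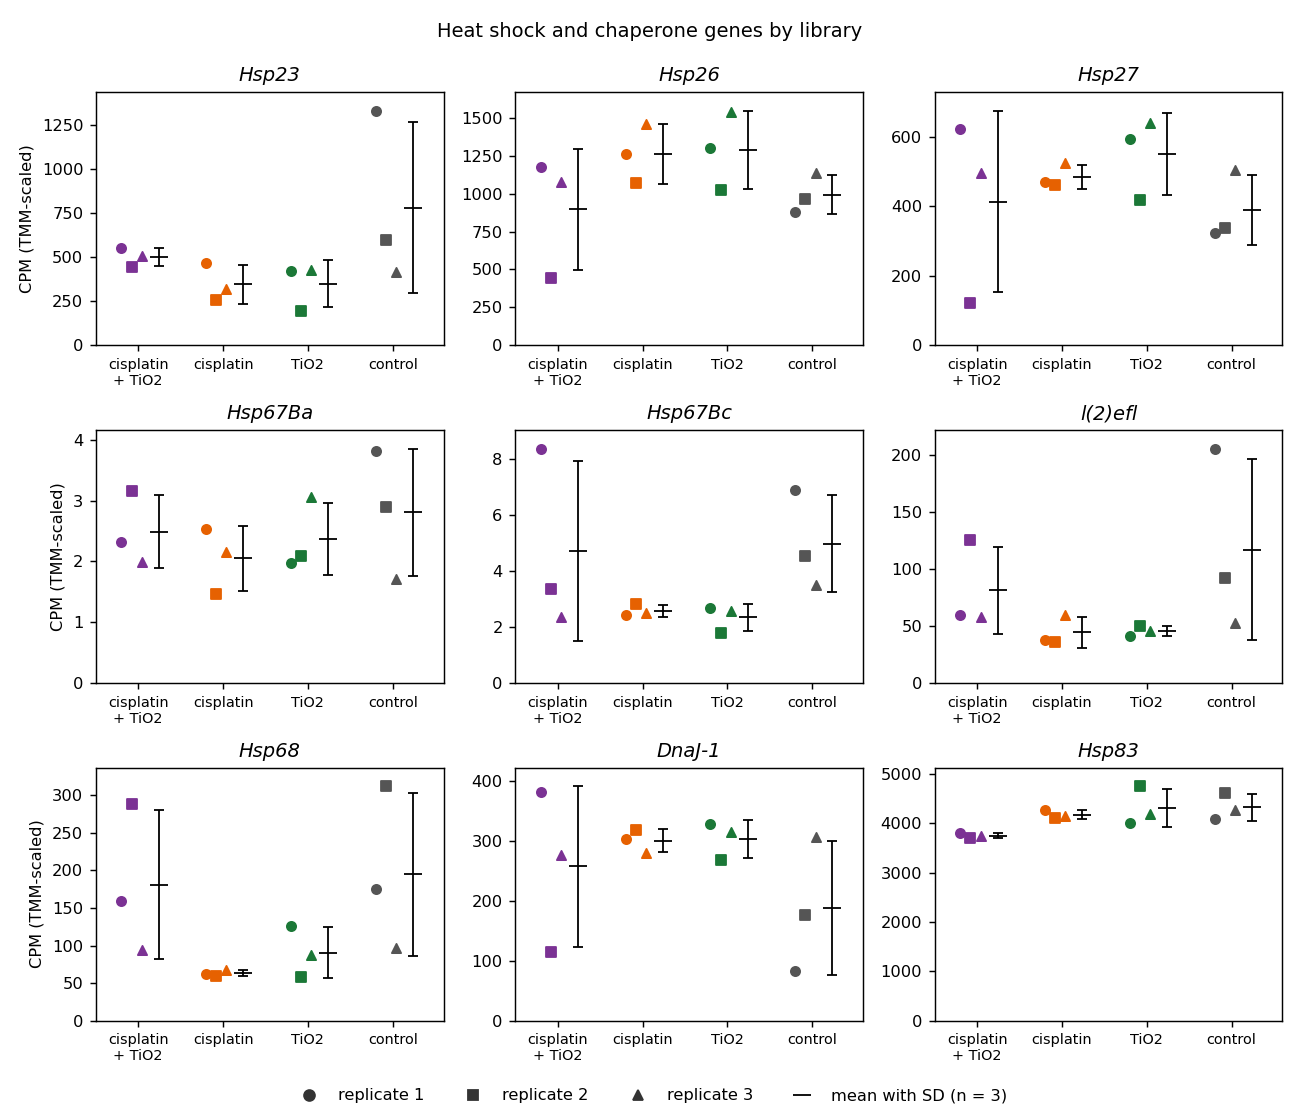
Each panel shows 1 gene, with the TMM-scaled CPM of the 12 libraries on a linear axis from 0, the 4 groups from left to right, and a black bar for the mean with its SD (n = 3). The cisplatin libraries lie close together for Hsp68 (59.5 to 67.2 CPM) and DnaJ-1 (280 to 318 CPM), whereas the combination and control libraries are spread widely, and Hsp83 stays between 3704 and 4752 CPM.

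Among the small heat shock proteins, Hsp23 had 549, 445 and 506 CPM in the combination libraries, 467, 254 and 316 CPM in cisplatin, 422, 193 and 426 CPM in TiO2, against 1328, 597 and 413 CPM in control (replicates 1, 2 and 3). Control replicate 1 was the highest of the 12 libraries, and control replicate 3 lay below all 3 combination libraries. l(2)efl, a homolog of the vertebrate alpha-crystallins, had 59.9, 125 and 57.9 CPM in the combination, 37.2, 36.0 and 59.8 CPM in cisplatin, 41.5, 49.7 and 45.7 CPM in TiO2, against 205, 91.8 and 52.8 CPM in control. All TiO2 libraries lay below all control libraries, while 1 cisplatin library lay within the control range. Hsp67Bc, described in flies as a functional counterpart of the human autophagy-linked protein HSPB8, had 8.38, 3.37 and 2.37 CPM in the combination, 2.42, 2.82 and 2.49 CPM in cisplatin, 2.68, 1.78 and 2.57 CPM in TiO2, against 6.89, 4.54 and 3.51 CPM in control. Each single treatment lay wholly below control, and the combination overlapped all other groups.

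Hsp26, a cytosolic small heat shock protein, and Hsp27, a nuclear one, had another order of libraries. Hsp26 had 1178, 442 and 1075 CPM in the combination, 1260, 1069 and 1462 CPM in cisplatin, 1305, 1025 and 1538 CPM in TiO2, against 880, 968 and 1135 CPM in control. Hsp27 had 623, 121 and 496 CPM in the combination, 471, 460.1 and 525 CPM in cisplatin, 594, 417 and 641 CPM in TiO2, against 324, 337 and 506 CPM in control. For both genes the lowest library was replicate 2 of the combination, and the groups overlapped. Hsp67Ba, a low-level gene of the cluster, ranged from 1.99 to 3.16 CPM in the combination, from 1.47 to 2.53 CPM in cisplatin, from 1.97 to 3.05 CPM in TiO2 and from 1.72 to 3.81 CPM in control, with all ranges overlapping.

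Hsp68, an inducible Hsp70-family protein, had 159, 289 and 94.7 CPM in the combination, 61.6, 59.5 and 67.2 CPM in cisplatin, 126, 58.7 and 87.1 CPM in TiO2, against 175, 312 and 96.7 CPM in control. The 3 cisplatin libraries lay below every combination and every control library. DnaJ-1, a J-domain partner of Hsp70 proteins, had 381, 115 and 276 CPM in the combination, 303, 318 and 280 CPM in cisplatin, 329, 268 and 314 CPM in TiO2, against 82.6, 177 and 306 CPM in control. Its lowest values were those of control replicate 1 and combination replicate 2. Hsp83 had 3809, 3704 and 3744 CPM in the combination, 4276, 4105 and 4147 CPM in cisplatin, 4017, 4752 and 4186 CPM in TiO2, against 4085, 4624 and 4279 CPM in control. The 3 combination libraries were the 3 lowest of the 12.

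Some of the 9 genes had opposed patterns across libraries. The same 3 libraries, combination replicate 2 and control replicates 1 and 2, held the 3 highest values of Hsp68 and of l(2)efl and the 3 lowest values of Hsp26, Hsp27 and DnaJ-1. Hsp23, Hsp67Ba, Hsp67Bc and Hsp83 followed neither pattern. Those 3 libraries also had the 3 highest sums of the 7 muscle markers. The muscle sums were 2748, 36700 and 11830 CPM in the combination, 2154, 4765 and 5618 CPM in cisplatin, 8499, 7696 and 4337 CPM in TiO2, against 30370, 20360 and 3632 CPM in control. The ovarian germline transcripts osk, vas and bcd, taken as 1 sum, were lowest in the same 3 libraries. They had 551, 237 and 442 CPM in the combination, 579, 554 and 541 CPM in cisplatin, 471, 642 and 558 CPM in TiO2, against 319, 294 and 441 CPM in control. The whole list of 11 ovary markers, which is mostly eggshell genes, ranged from 1104 to 7370 CPM in the combination, 10950 to 18310 in cisplatin, 2942 to 13740 in TiO2 and 2223 to 10310 CPM in control. This sum did not divide the libraries in the same way. Control replicate 2 had 10310 CPM, the highest sum of control, and lay above all 3 combination libraries. What part these tissue markers have in the levels of the chaperone genes was not tested. In whole flies, fewer cells of a type and less RNA per cell cannot be told apart. This division of the libraries was not particular to chaperones. The 3 libraries held the 3 highest values of 22.2% of the 9 genes tested and of 28.5% of all 11060 genes. They held the 3 lowest values of 33.3% of the 9 and of 32.1% of all genes. For 60 other genes of the wider chaperone lists the shares were 21.7% and 23.3%.

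**Figure D2:**
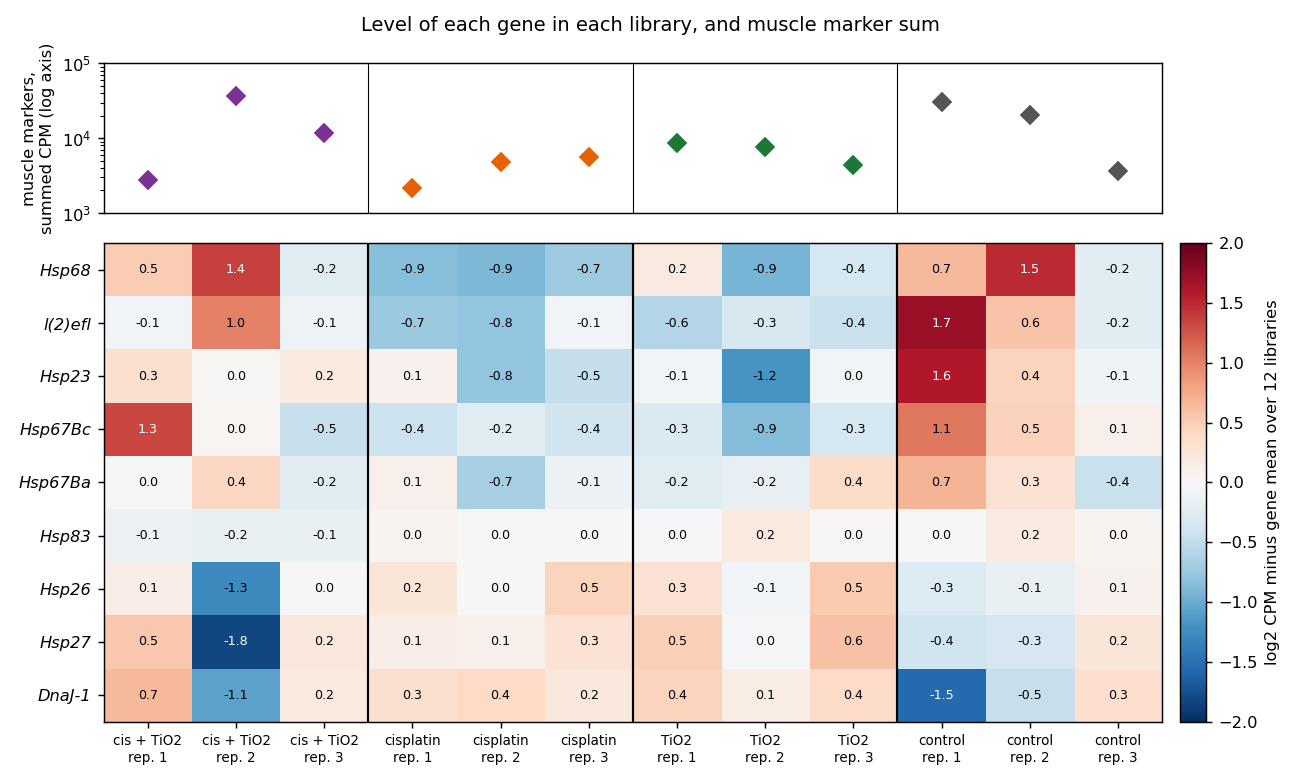
The upper panel gives the summed CPM of the 7 muscle markers in each library on a log axis, and the lower panel the log2 CPM of each gene minus its mean over the 12 libraries, with red for higher and blue for lower. In combination replicate 2 and control replicates 1 and 2 the muscle sums are 20360 to 36700 CPM, Hsp68 and l(2)efl are red, and Hsp26, Hsp27 and DnaJ-1 are below their means.

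Cisplatin was compared with control to ask what the drug alone did. No gene of the 9 passed the Benjamini-Hochberg adjusted threshold of 0.05 in edgeR's quasi-likelihood test (0 of 11060 genes passed, 0%). None of the 9 did in DESeq2, beside 1.84% of all genes. In limma's voom with sample weights, which gives less weight to the more variable libraries, 7 of the 9 passed. So did 8136 of all genes tested, 73.6%. At an unadjusted p under 0.05, 3 of the 9 were lower in cisplatin, beside 15.0% of all genes tested. Hsp68 averaged 62.8 ± 3.99 CPM in cisplatin and 195 ± 109 CPM in control (SD, n = 3 each), a log2 fold change of -1.63 (standard error, SE, 0.48, edgeR p 0.00652, Benjamini-Hochberg adjusted p 0.270). l(2)efl averaged 44.4 ± 13.4 CPM in cisplatin and 117 ± 79.2 CPM in control, with a log2 fold change of -1.40 (SE 0.47, edgeR p 0.0135, adjusted p 0.270). Hsp23 averaged 346 ± 109 CPM in cisplatin and 779 ± 484 CPM in control, a log2 fold change of -1.17 (SE 0.44, edgeR p 0.0224, adjusted p 0.270). The ranges of Hsp68 and of Hsp67Bc lay below those of control without overlap, which was so for 15.0% of all genes. Hsp67Bc had a log2 fold change of -0.95 (SE 0.46, edgeR p 0.0673, adjusted p 0.272). The other genes had log2 fold changes of 0.67 for DnaJ-1, 0.35 for Hsp26, 0.32 for Hsp27, -0.05 for Hsp83 and -0.45 for Hsp67Ba, with an unadjusted edgeR p of 0.177 or more. DnaJ-1, Hsp26 and Hsp27, those above 0, had control replicates 1 and 2 among their 3 lowest libraries. Their sign against control is thus not a separate observation. The median log2 fold change was -0.45 over the 9 genes and -0.03 over all genes. Without control replicate 1, a single gene of the 9 and 4.81% of all genes were lower at that unadjusted p, and the log2 fold changes were -0.56 for Hsp23, -0.72 for l(2)efl, -0.65 for Hsp67Bc and -1.72 for Hsp68. Without both libraries that stand apart 2 of the 9 were lower at that p, beside 13.8% of all genes. Without control replicate 2, the library with the highest Hsp68 level, Hsp68 had a log2 fold change of -1.11 (edgeR, adjusted p 0.532).

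TiO2 nanoparticles alone were set against the same control libraries, so this comparison and that of cisplatin share their reference values. In edgeR 0% of genes, and none of the 9, passed the adjusted threshold. DESeq2 called none of the 9, beside 2.60% of all genes. Voom with sample weights called 7 of the 9 and 7905 genes in all, 71.5% of those tested. At an unadjusted p under 0.05, 4 of the 9 were lower in TiO2, beside 12.8% of all genes. l(2)efl averaged 45.6 ± 4.12 CPM in TiO2 and 117 ± 79.2 CPM in control (log2 fold change -1.35, SE 0.47, edgeR p 0.0157, adjusted p 0.300). Hsp23 averaged 347 ± 133 CPM in TiO2 and 779 ± 484 CPM in control (log2 fold change -1.17, SE 0.44, edgeR p 0.0230, adjusted p 0.300). For both genes the TiO2 libraries lay closer together than the control libraries. Hsp67Bc averaged 2.35 ± 0.49 CPM in TiO2 and 4.98 ± 1.73 CPM in control, a log2 fold change of -1.08 (SE 0.47, edgeR p 0.0414, adjusted p 0.300). Hsp68 averaged 90.7 ± 34.0 CPM in TiO2 and 195 ± 109 CPM in control, with a log2 fold change of -1.10 (SE 0.48, edgeR p 0.0419, adjusted p 0.300). The ranges of l(2)efl and Hsp67Bc lay below control without overlap, as did those of 14.9% of all genes. DnaJ-1 had a log2 fold change of 0.69, Hsp27 of 0.50, Hsp26 of 0.38, Hsp67Ba of -0.24 and Hsp83 of -0.00, none with an unadjusted p under 0.05. The median was -0.24 over the 9 genes and -0.08 over all genes. Without control replicate 1, none of the 9 and 5.78% of all genes were lower at that p, and the log2 fold changes were -0.56 for Hsp23 and -0.68 for l(2)efl. Without control replicate 2, Hsp68 had a log2 fold change of -0.58 (edgeR, adjusted p 0.564), and without both libraries that stand apart 2 of the 9 were lower at that p, beside 12.3% of all genes.

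**Figure D3:**
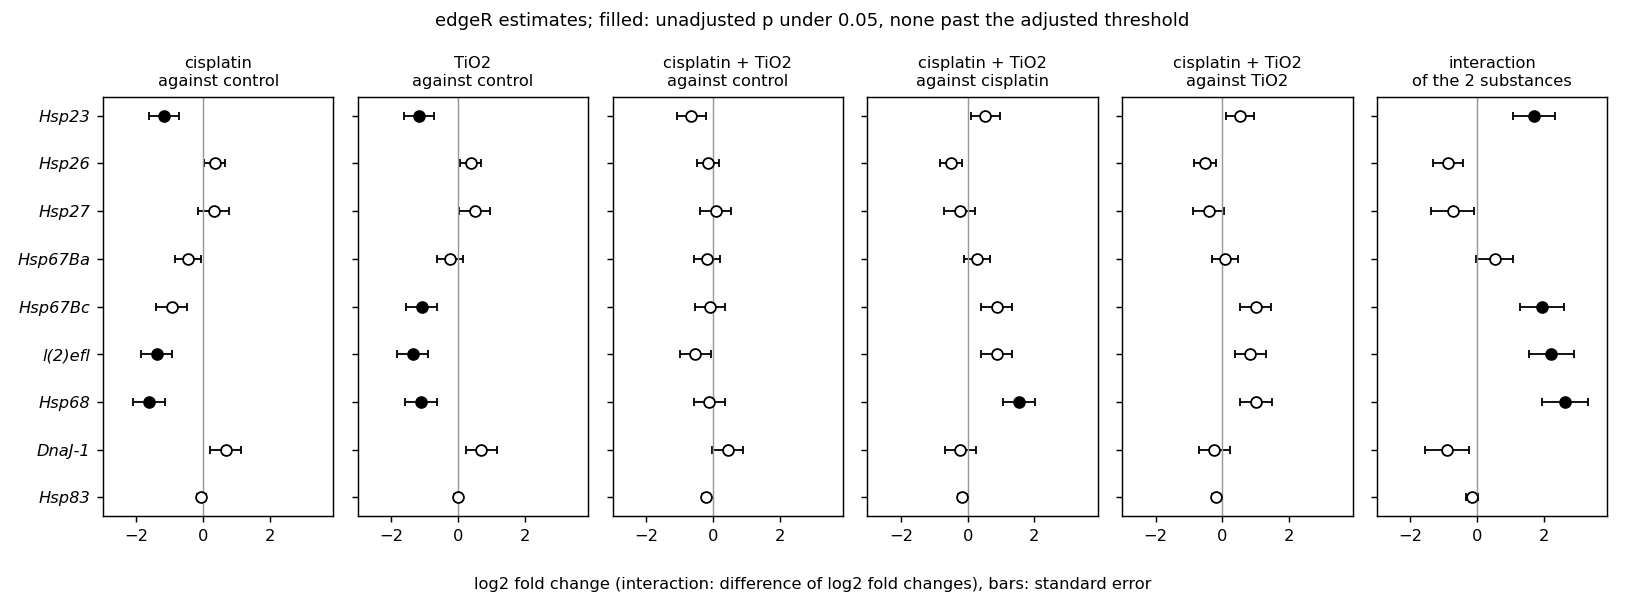
Points are edgeR log2 fold changes of the 9 tested genes in 6 comparisons, bars are standard errors, and filled points mark an unadjusted p under 0.05. Hsp68, l(2)efl and Hsp23 are to the left of 0 in both single treatments against control (-1.63 to -1.10), and the interaction of these genes is to the right of 0 (1.70 to 2.63), with no point past the adjusted threshold.

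The combination was compared with control to ask what both substances did together. In edgeR 0% of all genes passed the adjusted threshold, and none of the 9 was below an unadjusted p of 0.05, beside 7.09% of all genes. DESeq2 called none of the 9, beside 0.425% of all genes. Voom with sample weights called 6 of the 9 and 6462 genes in all, 58.4% of those tested. The smallest unadjusted p was that of Hsp83, which averaged 3752 ± 52.8 CPM in the combination and 4329 ± 273 CPM in control, a log2 fold change of -0.21 (SE 0.12, edgeR p 0.124, adjusted p 0.901). Its range lay below that of control, as it did for 5.06% of all genes. Hsp23 averaged 500.2 ± 52.2 CPM in the combination and 779 ± 484 CPM in control (log2 fold change -0.64, SE 0.43, edgeR p 0.170, adjusted p 0.952). l(2)efl averaged 81.0 ± 38.4 CPM in the combination and 117 ± 79.2 CPM in control (log2 fold change -0.53, SE 0.46, edgeR p 0.282, adjusted p 0.952). The remaining log2 fold changes lay between -0.17 for Hsp67Ba and 0.45 for DnaJ-1. The median over the 9 genes was -0.15, and over all genes it was 0.05. Without both libraries that stand apart the estimate of Hsp23 was 0.04 and that of Hsp68 was -0.72, against -0.11 with them.

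Against cisplatin alone, the combination had higher Hsp68 and lower Hsp83 levels without overlap of the ranges. Hsp68 averaged 181 ± 98.9 CPM in the combination and 62.8 ± 3.99 CPM in cisplatin, a log2 fold change of 1.53 (SE 0.48, edgeR p 0.00937, Benjamini-Hochberg adjusted p 0.334). It was the 1 gene of the 9 at an unadjusted p under 0.05, and 13.4% of all genes were higher at that level. Its range was higher without overlap, as for 7.57% of genes. Without both libraries that stand apart its log2 fold change was 1.03 (edgeR, adjusted p 0.999). Hsp83 averaged 3752 ± 52.8 CPM in the combination and 4176 ± 88.9 CPM in cisplatin (log2 fold change -0.15, SE 0.12, edgeR p 0.238, adjusted p 0.567), and 7.82% of all genes were lower without overlap. No gene (0%) passed the adjusted threshold in edgeR, and none of the 9 did in DESeq2, beside 0.344% of all genes. Voom with sample weights called Hsp68 alone of the 9 (adjusted p 0.0469) and 2618 genes in all, 23.7% of those tested. l(2)efl and Hsp67Bc had log2 fold changes of 0.87 each, with an edgeR p of 0.0898 for l(2)efl and 0.0895 for Hsp67Bc. Without combination replicate 1 the log2 fold change of Hsp67Bc was 0.14.

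Against TiO2 alone, l(2)efl and Hsp23 were higher in the combination without overlap of the ranges, beside 4.23% of all genes, and Hsp83 was lower, beside 2.33%. l(2)efl averaged 81.0 ± 38.4 CPM in the combination and 45.6 ± 4.12 CPM in TiO2 (log2 fold change 0.83, SE 0.47, edgeR p 0.104, adjusted p 0.617). Hsp23 averaged 500.2 ± 52.2 CPM in the combination and 347 ± 133 CPM in TiO2, a log2 fold change of 0.53 (SE 0.43, edgeR p 0.251, adjusted p 0.680). Hsp83 averaged 3752 ± 52.8 CPM in the combination and 4318 ± 385 CPM in TiO2, a log2 fold change of -0.20 (SE 0.12, edgeR p 0.130, adjusted p 0.628). The smallest unadjusted p was that of Hsp67Bc, 0.0553, at a log2 fold change of 1.00 (SE 0.47, edgeR adjusted p 0.617), and Hsp68 also had 1.00 (p 0.0609). None of the 9 had an unadjusted p under 0.05, which 6.78% of all genes had, and 0% of genes passed the adjusted threshold in edgeR. DESeq2 and voom with sample weights called none of the 9, beside 0.0271% and 3.15% of all genes. Without combination replicate 1 the log2 fold change of Hsp67Bc was 0.28, and without combination replicate 2 that of Hsp68 was 0.48.

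The interaction is the log2 fold change of the combination against control minus those of cisplatin and of TiO2 added together, so that a positive value places the combination above the added effects. In edgeR 0% of genes passed the adjusted threshold. At the unadjusted threshold of 0.05, 4 of the 9 genes had a positive interaction, beside 26.7% of all genes. The value was 2.63 for Hsp68 (SE 0.68, edgeR p 0.00277), 2.22 for l(2)efl (SE 0.66, p 0.00676), 1.95 for Hsp67Bc (SE 0.66, p 0.0135) and 1.70 for Hsp23 (SE 0.62, p 0.0194), each with an adjusted p of 0.129. Hsp26, Hsp27 and DnaJ-1 had values of -0.87, -0.73 and -0.91, Hsp83 of -0.15 and Hsp67Ba of 0.52. DESeq2 called Hsp68 (adjusted p 0.0139), l(2)efl (0.0257) and Hsp67Bc (0.0403) among 1611 genes in all, 14.6% of those tested. Voom with sample weights called 7 of the 9 and 7963 genes in all, 72.0% of those tested. In edgeR without control replicate 3, the control library with the lowest muscle sum, Hsp68, l(2)efl and Hsp23 each had an adjusted p of 0.0492, and 15.5% of all genes passed. Without combination replicate 1, the adjusted p was 0.0382 for Hsp68 and 0.0406 for l(2)efl, while 25.0% of all genes passed. Under that setting the value of Hsp67Bc, which had its highest level in combination replicate 1, was 1.21 (edgeR, adjusted p 0.0812). Without both libraries that stand apart, the values were 2.25 for Hsp68, 1.13 for l(2)efl, 1.88 for Hsp67Bc and 1.21 for Hsp23, with adjusted p-values of 0.421 for Hsp68 and 0.437 for the others. The median was then 0.09 over the 9 genes and 0.03 over all genes. With all libraries it was 0.52 over the 9 genes and 0.07 over all genes.

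The rest of the chaperone system was read from 8 lists of 76 genes that hold the 10 genes too. Of these, 69 were tested and 0 passed the adjusted threshold in edgeR in any of the 6 comparisons. The 69 hold 6 near-identical Hsp70 genes, each counted singly below. At an unadjusted p under 0.05, 3 of the 69 were higher and 15 lower in cisplatin against control, beside 3.27% of all genes higher and 15.0% lower. In TiO2 against control 2 were higher and 12 lower, beside 3.71% and 12.8% of all genes. In the combination against control 1 was higher and 1 lower, beside 3.27% and 3.82% of all genes. The 1 higher gene was Hsc70-2, whose high count came from combination replicate 2 alone. Of the chaperone genes at that p, most were thus lower in the single treatments, as were most of all genes at that p. The median log2 fold change of the 69 was 0.01 in cisplatin and -0.06 in TiO2 against control. Against cisplatin the combination had 7 higher and 6 lower, beside 13.4% and 1.01% of all genes, and against TiO2 it had 2 higher and 0 lower, beside 6.58% and 0.199%. Hsc70-2 was among the higher genes in both of these comparisons. The interaction was positive in 21 and negative in 8, beside 26.7% and 4.98% of all genes.

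Of 10 small heat shock proteins tested, 6 were lower in cisplatin and 6 in TiO2 at an unadjusted p under 0.05, beside 15.0% and 12.8% of all genes, with median log2 fold changes of -1.09 and -1.13, and 0 of 10 reached it in the combination against control (median -0.30). CG14207 averaged 127 CPM in cisplatin and 254 CPM in control (edgeR p 0.0139, adjusted p 0.270). CG4461 had 32.6 CPM in cisplatin against 91.0 CPM in control (log2 fold change -1.48, SE 0.50, edgeR p 0.0131), and CG7409 had 32.3 CPM against 80.8 CPM (log2 fold change -1.32, SE 0.58, edgeR p 0.0459). All 3 of these had their 3 highest values in the libraries with the highest muscle sums. This was so for 21.7% of the 60 tested genes of the wider lists other than the 9, and for 28.5% of all genes. Without control replicate 1, 0 of the 10 were lower at that p in either single treatment, beside 4.81% of all genes in cisplatin and 5.78% in TiO2, and the medians were -0.64 in cisplatin and -0.62 in TiO2. With both libraries that stand apart left out, 5 were lower in cisplatin and 2 in TiO2, beside 13.8% and 12.3% of all genes.

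Of the 13 genes of the Hsp70 and Hsp110 family, 5 were lower in cisplatin and 4 in TiO2 at an unadjusted p under 0.05, beside 15.0% and 12.8% of all genes. They included Hsp70Aa, Hsp70Ba and Hsp70Bb in cisplatin, and Hsp70Aa, Hsp70Ab and Hsp70Ba in TiO2. These are near-identical copies, so counts over this family do not count separate signals. Without control replicate 2 the counts were 2 in cisplatin and 0 in TiO2, beside 7.68% and 7.71% of all genes. They were 9 and 7 without both libraries that stand apart, beside 13.8% and 12.3%. Hsc70-1, a constitutive Hsp70-family gene, averaged 23.1 CPM in cisplatin and 95.0 CPM in control, a log2 fold change of -2.04 (SE 0.74, edgeR p 0.0199). Its libraries had 20.9, 184 and 52.1 CPM in the combination, 20.7, 20.3 and 28.3 CPM in cisplatin, 37.1, 33.4 and 25.0 CPM in TiO2, against 151, 107 and 27.3 CPM in control. The 6 Hsp70 genes, the classic targets of heat shock factor, are near-identical copies, so their reads were summed. How the counting treated reads that fit several copies is not given in the sources used here, so the sum need not hold all reads of these genes. It averaged 24.8 ± 11.3 CPM in the combination and 15.0 ± 7.70 CPM in cisplatin, while TiO2 had 14.1 ± 6.02 CPM and control 40.4 ± 28.1 CPM (SD, n = 3 each). The highest library was control replicate 2 with 71.0 CPM, and control replicate 1 with 15.7 CPM lay within the range of each treated group except the combination. Hsc70-2 stood out by 1 library. It had 2530 counts in combination replicate 2, the library with the male transcripts, against 40 to 113 counts in the other 11 libraries. Hsp60B, Hsp60C, Hsp60D, Spag1 and Cnx14D, which failed the filter, had 3201, 6028, 829, 443 and 75 counts in that library and at most 19 counts in any other. DnaJ-60 had a count of 0 in every library, but 100% of its exon bases lie in exons of CG42568 on the same strand, so its expression could not be read either.

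The regulators gave values on both sides. Hsf, the transcription factor of the heat shock response, had 210, 57.6 and 165 CPM in the combination, 182, 188 and 179 CPM in cisplatin, 211, 164 and 188 CPM in TiO2, against 59.0, 101 and 188 CPM in control. Its 3 lowest libraries were again those with the highest muscle sums, as for 32.1% of all genes. Its log2 fold change was 0.66 in cisplatin against control (SE 0.46, edgeR p 0.184). stv, the fly BAG3 cochaperone that acts with CG14207 in muscle, averaged 48.2 CPM in cisplatin and 124 CPM in control (log2 fold change -1.36, SE 0.41, edgeR p 0.00769). Its cisplatin range lay below that of control without overlap, as for 15.0% of all genes. Its 3 highest libraries were those with the highest muscle sums, as for 28.5% of all genes. In the combination stv averaged 135 CPM, with 87.0, 225 and 91.8 CPM in the 3 libraries. Its log2 fold change against cisplatin was 1.48 (SE 0.42, edgeR p 0.00479, adjusted p 0.334). Of 11 tested J-domain cochaperones, 2 were higher and 2 lower in cisplatin against control at an unadjusted p under 0.05. Over all genes 3.27% were higher and 15.0% lower. CG5001 had a log2 fold change of -1.36 in this comparison (SE 0.46, edgeR p 0.0137), mrj of 0.49 (SE 0.18, p 0.0186) and Csp of 0.36 (SE 0.14, p 0.0314). jdp had 9.82, 15.25 and 15.0 CPM in cisplatin, against 53.4, 40.2 and 12.2 CPM in control. None of the 10 tested genes of the Hsp90 system had an unadjusted p under 0.05 in a comparison of 2 groups.

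The 8 subunits of the cytosolic chaperonin, the ring that folds actin and tubulin, had values of the same sign in the combination. All 8 had log2 fold changes under 0 against control, against cisplatin and against TiO2, with medians of -0.16, -0.42 and -0.30. At an unadjusted p under 0.05, 6 of 8 were lower than in cisplatin, beside 1.01% of all genes, and all 8 had ranges below those of cisplatin, beside 7.82%. CCT5 averaged 326 CPM in the combination and 433 CPM in cisplatin, a log2 fold change of -0.41 (SE 0.14, edgeR p 0.0144, Benjamini-Hochberg adjusted p 0.334). Combination replicate 2 was the lowest library of every subunit, with CCT5 at 296 CPM, beside 352 and 330 CPM in the other combination libraries. Without that library 2 of 8 subunits were lower than in cisplatin at an unadjusted p under 0.05 (median -0.32), beside 0.892% of all genes. Against control 5 of 8 then had log2 fold changes under 0, with a median of -0.04, beside -0.09 over all genes. Without both libraries that stand apart 4 of 8 were lower than in cisplatin at that p (median -0.30), beside 1.23% of all genes. Without control replicate 1 it was 7 of 8, beside 1.28%. Of 10 tested genes of folding in the endoplasmic reticulum, 1 was lower at an unadjusted p under 0.05 in each single treatment. Over all genes 15.0% were lower in cisplatin and 12.8% in TiO2 at that p. The gene was Xbp1, a transcription factor of the unfolded protein response. Mean levels were 329 CPM in cisplatin, 325 CPM in TiO2 and 477 CPM in control, with log2 fold changes of -0.54 (SE 0.15, edgeR p 0.00385, adjusted p 0.270) in cisplatin and -0.55 (SE 0.15, edgeR p 0.00327, adjusted p 0.277) in TiO2. Xbp1 had 368, 467 and 376 CPM in the combination, 348, 323 and 314 CPM in cisplatin, 319, 326 and 331 CPM in TiO2, against 522, 498 and 412 CPM in control. Its 3 highest libraries were control replicates 1 and 2 and combination replicate 2, those with the highest muscle sums, as for 28.5% of all genes. Roe1, a mitochondrial cochaperone, had a log2 fold change of 0.40 in cisplatin against control (SE 0.17, edgeR p 0.0405).

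**Figure D4:**
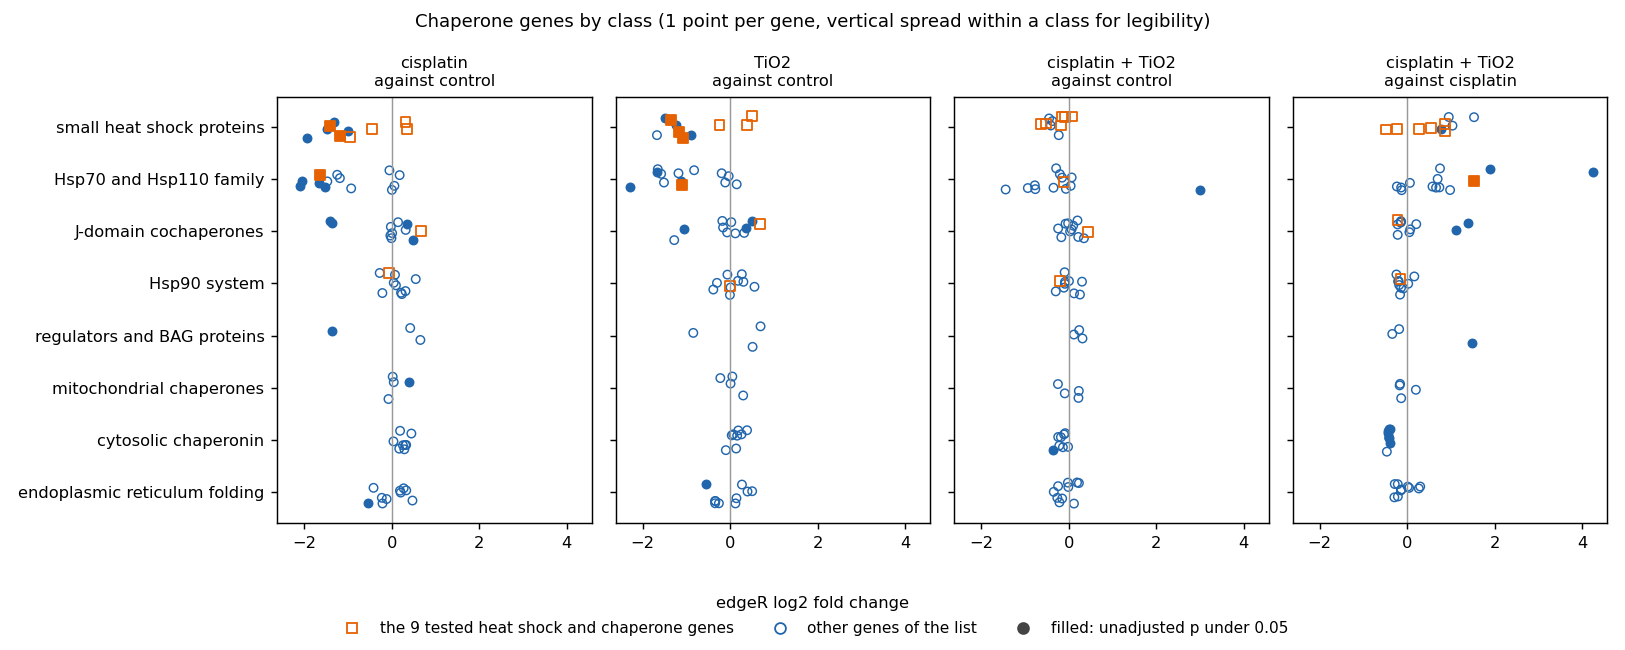
Each point is the edgeR log2 fold change of 1 gene in 1 of 4 comparisons, by class of chaperone, with squares for the 9 tested heat shock and chaperone genes and filled symbols for an unadjusted p under 0.05. Small heat shock proteins have medians of -1.09 in cisplatin and -1.13 in TiO2 against control, and the 8 chaperonin subunits lie left of 0 in both comparisons of the combination.

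For the 3 genes with the widest spread, the genes with the most similar pattern were sought among 8256 others with a mean of at least 5 CPM, by the Pearson correlation of log2 CPM over the 12 libraries, given here as a description. Hsp68 was most like stv (0.921), CG11658 (0.917) and ect (0.911). l(2)efl was most like nec (0.957), CG4783 (0.953) and CG14207 (0.953). Hsp23 was most like CG18343 (0.852), CG11686 (0.846) and REPTOR-BP (0.844). Of these 9 genes, stv and CG14207 are on the chaperone lists.

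In the authors' deposited table for cisplatin against control, 127 genes had an adjusted p under 0.05, and Hsp68 had a log2 fold change of -1.64 with an adjusted p of 0.0715. The authors' deposited table for TiO2 against control had 433 such genes, and the smallest adjusted p among the genes described here was 0.103, that of l(2)efl. The authors' deposited table for the combination against control had 70 such genes, with an adjusted p of 0.466 for Hsp83 and of 0.997 or more for the others. None of the 10 genes passed 0.05 in any of the 3 authors' deposited tables, and Hsp22 had no value there.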

How the data were processed

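Counts per gene were deposited by the authors for 12 libraries in 1 table of 17610 genes whose columns are named as in a featureCounts output, per the file headers. The submitters' processing notes name FastQC, Trimmomatic, SAMtools, HTSeq and BWA without role or version, and genome build and strand setting are not given in the sources used here. The authors also deposited 3 tables of log2 fold changes and adjusted p-values against control, in the layout of a DESeq2 result per the file headers. These are quoted only where named.

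The counts were tested with edgeR 4.0.16 (R 4.3.3). The filterByExpr rule, given the 4 groups, left 11060 genes, and TMM factors scaled the library sizes. All 12 libraries entered 1 quasi-likelihood fit with a mean for each group. The 6 contrasts were tested in both directions, with Benjamini-Hochberg adjustment over all genes tested and a threshold of 0.05. CPM use TMM-scaled library sizes of the genes kept, or of all genes for summed markers and the Hsp70 sum. Log2 CPM have a prior count of 2. Alternatives were DESeq2 1.42.0, other scaling, no filter, limma 3.58.1 voom with sample weights, the replicate number as a block, the compared groups alone, and leaving out each library. The fit was run on simulated data only to check that it works as intended. Which changes could be detected at the spread of these libraries is not given here.

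Gene names came from a FlyBase-based name table and positions from the Ensembl BDGP6.54 annotation. All 10 genes are named, with full statistics at an unadjusted p under 0.05, without overlap of ranges, or for the 3 smallest p where none was. From each wider list at most 4 genes per comparison averaging 5 CPM or more, those of smallest p, are named, and genes counted in only 1 library were added after their values were seen. The genes and lists were chosen with earlier results of these data known. Every library carries the same batch label. Gene and promoter sequences were not used here. Same-numbered libraries did not deviate together (correlations of deviations above 0.1 in 6 of 18 pairs), so replicate numbers were not treated as pairs.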

Additional observations from a re-analysis of the deposited data

How the results depend on the processing

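In edgeR, with all 12 libraries, 0 genes passed the adjusted threshold in any comparison, and the counts of calls depended on the tool and on single libraries; the cause was not tested. Against control, DESeq2 called 204 genes for cisplatin, 288 for TiO2 and 47 for both, 38 in the combination against cisplatin, 3 against TiO2 and 1611 in the interaction, 3 of them among the 9 genes tested. Limma's voom with sample weights called 8136, 7905 and 6462 genes against control in cisplatin, TiO2 and the combination, 2618 and 348 in the combination against cisplatin and TiO2, and 7963 in the interaction. Of the 9 genes it called 7, 7, 6, 1, 0 and 7 in the same order. Leaving out 1 library at a time, edgeR called 0 to 14 genes in TiO2 and 0 to 4 in the combination against control, both maxima without combination replicate 2. In the interaction it called 0 to 2823 genes and 0 to 3 of the 9. The 2823 came without combination replicate 1, and without control replicate 3 there were 1752 genes and 3 of the 9.

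Without both libraries that stand apart (control replicate 1 and combination replicate 2, an alternative chosen after seeing the data), edgeR called 12 genes in TiO2 and 3 in the combination against control, none of the 9, and the median interaction of the 9 genes was 0.0857. Under this setting the log2 fold change changed sign for Hsp67Ba in TiO2 (0.00189). It did so in the combination against control for Hsp23 (0.0433), Hsp26 (0.0864) and Hsp67Bc (0.38), against cisplatin for Hsp27 (0.22) and DnaJ-1 (0.14), and against TiO2 for Hsp27 (0.0396), Hsp67Ba (-0.12) and DnaJ-1 (0.13).

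Of 1017 recomputed log2 fold changes of the 9 genes, 936 had the sign and the side of the threshold given in the report, 36 passed the threshold with the same sign, and 45, in 16 of 54 gene and comparison pairs, had the other sign. Other sign changes were Hsp83 in TiO2 under DESeq2 and RLE scaling (0.0235 and 0.0234) and, under voom, Hsp26 in the combination against control (0.15), Hsp27 (0.0256) and Hsp67Bc (-0.0378) against cisplatin and Hsp67Ba (-0.36) against TiO2. Leaving out 1 library, the values ranged from -0.10 to 0.00453 for Hsp83 in cisplatin, and in TiO2 from -0.49 to 0.0256 for Hsp67Ba and from -0.0888 to 0.052 for Hsp83. In the combination against control they ranged from -0.39 to 0.18 for Hsp26, -0.34 to 0.52 for Hsp27, -0.43 to 0.10 for Hsp67Ba, -0.80 to 0.24 for Hsp67Bc, -0.99 to 0.15 for l(2)efl and -0.62 to 0.41 for Hsp68. Against cisplatin they ranged from -0.66 to 0.21 for Hsp27 and -0.63 to 0.13 for DnaJ-1, and against TiO2 from -0.84 to 0.0225 for Hsp27, -0.14 to 0.28 for Hsp67Ba and -0.64 to 0.11 for DnaJ-1.

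Libraries with the same replicate number shared only a number: the correlation of their deviations ran from -0.74 to 0.47 over 18 pairs. The replicate block left the count of genes called at 0 in all 6 comparisons and turned Hsp27 in the combination against control to -0.0564. Depth limits Hsp67Ba and Hsp67Bc most, which had the fewest counts of the genes tested.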
